A study of Mus musculus with 6 samples.

Results

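The platelet-derived growth factor (PDGF) family in mouse consists of 4 ligand genes, Pdgfa, Pdgfb, Pdgfc and Pdgfd, the receptor genes Pdgfra and Pdgfrb, and the receptor-like gene Pdgfrl. These 7 genes were taken by symbol from the 32285 genes of the deposited matrices, and all 7 had a row in each. Levels were measured in single cells of the left quadriceps of male wild-type C57BL/6 mice, 2 to 3 months old. The critical group had a volumetric muscle loss injury labelled as 3 mm, the subcritical group an injury labelled as 2 mm, and muscle was taken on day 7. The uninjured group had no injury. Each group had 4 animals, whose cells were marked with hashtag antibodies; the pool of a group was then stained with barcoded panel antibodies and gave 1 library, so injury, pool and library cannot be told apart. The muscle was digested with collagenase and dispase and red blood cells were lysed, and the series title names fibro-adipogenic progenitors in fibrosis after muscle loss as its subject.

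PDGF ligands act as disulphide-linked dimers. PDGF-A and PDGF-C bind mainly the receptor alpha, whereas PDGF-B binds both receptors and PDGF-D mainly the receptor beta; PDGF-C and PDGF-D are secreted latent and are activated by proteases. In vessels, endothelial cells make PDGF-B, which recruits and holds the mural cells (pericytes and smooth muscle) that carry the receptor beta. In skeletal muscle the receptor alpha marks fibro-adipogenic progenitors (FAPs), the mesenchymal cells that lay down matrix after injury and can form fat, and PDGF signals through it drive their growth. Pdgfrl encodes a secreted protein that resembles the outer part of a PDGF receptor and has no kinase.

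In outline, Pdgfb and Pdgfd were highest in endothelial-like cells of each library, Pdgfra in FAP-like cells, Pdgfrb in mural-like cells and Pdgfrl in tenocyte-like cells. In the subcritical library Pdgfd was not clear of mural-like cells. Pdgfa was highest in mural-like cells, though not clear of other classes in that library, and the class with most Pdgfc differed between libraries. Pdgfra relative to all transcripts of FAP-like cells was lower in both injured libraries than in the uninjured one, and Pdgfa and Pdgfc were higher there; with coarser clusters none of these differences was a called 2-fold change. Pdgfrb in mural-like cells was higher in both injured libraries. No PDGF gene passed the test between critical and subcritical animals.

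The antibody that reads the receptor alpha as protein, and the hashtags that separate the animals, are each counted through a 15-base barcode, and those the results rest on were as follows.
CD140a (the receptor alpha): gtcattgcggtccta
CD31 (the endothelial surface protein Pecam1, used for scale): gctgtagtatcatgt
Hashtag_1: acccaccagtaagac
Hashtag_2: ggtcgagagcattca
Hashtag_3: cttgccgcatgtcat
Hashtag_4: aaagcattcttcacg

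RefSeq promoter windows of 300 bases (250 before the start of transcription and 50 after, build GRCm38.p6) were held for 4 of the 7 genes; the matrices were made on GRCm39, so these coordinates belong to the older build. Those of Pdgfra, Pdgfa and Pdgfc are shown because these 3 genes were past the fold in FAP-like cells in both injured libraries. Each window was searched on both strands for the letters of the CAAT box (CCAAT), of the TATA box (TATAAA) and of the GC box (GGGCGG), which do not overlap one another, and matches are in capitals. The Pdgfra window lies at chr5:75152001-75152300 on the plus strand, that of Pdgfa at chr5:138994895-138995194 on the minus strand, and that of Pdgfc at chr3:81036166-81036465 on the plus strand.
Pdgfra: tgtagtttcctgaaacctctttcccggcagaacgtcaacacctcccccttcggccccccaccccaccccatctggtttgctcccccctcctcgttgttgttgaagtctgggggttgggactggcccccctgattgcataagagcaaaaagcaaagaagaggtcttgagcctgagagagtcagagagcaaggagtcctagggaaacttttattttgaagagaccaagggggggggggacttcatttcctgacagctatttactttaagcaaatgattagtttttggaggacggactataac
Pdgfa: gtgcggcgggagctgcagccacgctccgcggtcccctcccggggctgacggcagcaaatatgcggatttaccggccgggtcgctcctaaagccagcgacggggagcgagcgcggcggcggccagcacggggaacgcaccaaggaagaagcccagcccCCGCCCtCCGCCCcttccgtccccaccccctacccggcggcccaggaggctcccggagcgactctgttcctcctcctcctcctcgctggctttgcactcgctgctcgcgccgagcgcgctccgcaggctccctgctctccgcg
Pdgfc: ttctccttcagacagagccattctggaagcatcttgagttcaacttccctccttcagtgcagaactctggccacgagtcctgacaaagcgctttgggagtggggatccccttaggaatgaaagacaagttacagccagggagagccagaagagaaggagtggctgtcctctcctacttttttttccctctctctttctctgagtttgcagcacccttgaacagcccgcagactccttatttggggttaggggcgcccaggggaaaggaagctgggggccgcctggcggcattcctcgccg
RefSeq gives Pdgfa a second start, whose window (chr5:138994232-138994531, minus strand) is not printed; the upstream one is shown. The Pdgfa window shown held 2 matches to GGGCGG, read on the opposite strand, had a GC content of 73.3% and 37 CpG; the other held 1 match, with 67% and 24 CpG. The Pdgfra window held none of the 3 motifs, with a GC content of 51% and 5 CpG, and the Pdgfc window none either, with 55% and 8 CpG. Over all 32851 promoter windows of this length, 35.7% held GGGCGG, 37.4% CCAAT and 13.6% TATAAA, and the medians were 52.7% GC and 7 CpG.

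The matrices held 3161 critical, 3071 subcritical and 2195 uninjured barcodes with 7138662, 4954129 and 5681346 transcript counts (UMIs, unique molecules). After filters, 3012, 2755 and 2134 cells remained, with medians of 1589, 1277 and 1805.5 UMIs, and 16, 10 and 16 barcodes were shared between critical and subcritical, critical and uninjured, and subcritical and uninjured libraries. Cells were clustered without the 7 PDGF genes and classes were named from marker genes: 918 critical, 759 subcritical and 166 uninjured cells were FAP-like, 620, 570 and 1295 endothelial-like, 790, 818 and 34 macrophage-like, and 215, 156 and 247 mural-like. Smaller classes were tenocyte-like (145, 126 and 29), myogenic (114, 96 and 23), glial (34, 13 and 110) and neutrophil-like (4, 22 and 121). All 12 FAP markers were found in the FAP-like cells of each library. FAP-like cells came mostly from different clusters in injured and uninjured libraries: cluster 0, led by H19, Ptn and Postn, held 528 critical, 382 subcritical and 1 uninjured cells, and cluster 4, led by Myoc, Gsn and Pi16, held 231, 241 and 155. The rest lay in cluster 10, of lower depth (159, 136 and 10 cells). Hashtags placed enough cells of single animals (at least 20) only in the endothelial-like and macrophage-like classes; in the others, levels are sums over a library, scaled to 1000000 UMIs of those cells (CPM), with exact Poisson 95% intervals that cover counting error only, and no test was possible. There a gene was called past the fold if it differed at least 2-fold with a binomial 95% interval that excluded equality, among genes that averaged at least 5 CPM. Both injured libraries are set against the same uninjured library.

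**Figure D1:**
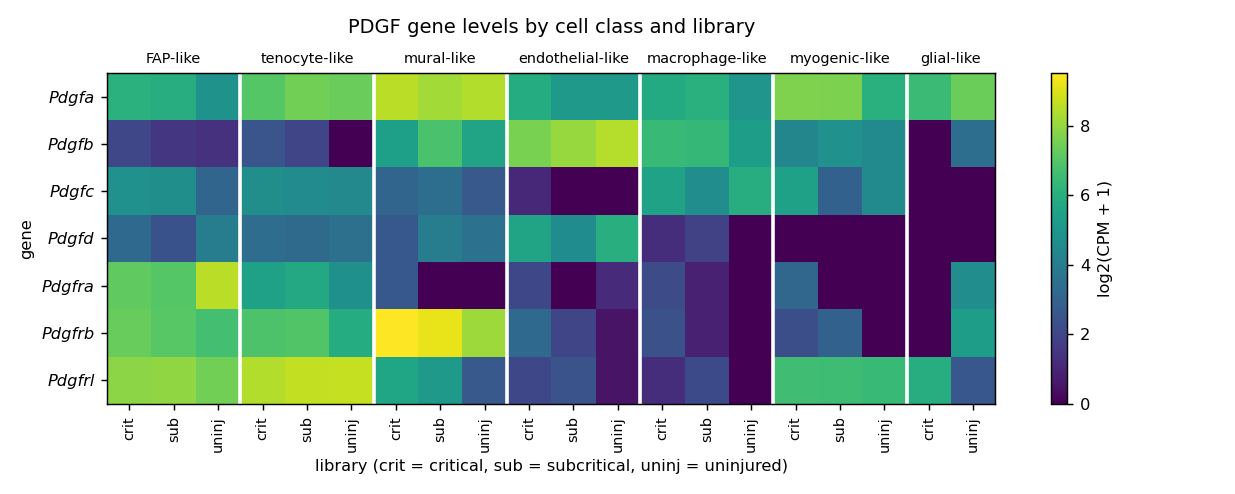
Level of each PDGF gene (rows) in each cell class and library (columns), as the colour of log2(CPM + 1), where CPM is UMIs of the gene per 1000000 UMIs summed over the class. Pdgfb is brightest in endothelial-like cells, Pdgfra in FAP-like cells and Pdgfrb in mural-like cells; glial cells of the subcritical library (13 cells) and neutrophil-like cells are not drawn.

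Pdgfa, whose product is the main ligand of the receptor alpha, was broadest of the ligands. It reached 365 CPM in critical, 294 CPM in subcritical and 340 CPM in uninjured mural-like cells, and the 3 intervals overlapped. In the critical library the mural level stood clear of the next class, the myogenic cells with 206 CPM, and in the uninjured library clear of glial cells with 168 CPM. In the subcritical library mural-like, glial, myogenic and tenocyte-like cells, with 294, 244, 201 and 179 CPM, could not be separated by the intervals of neighbours. No Pdgfa UMI was found in 121 uninjured neutrophil-like cells, which allows a share of up to 2.48% of such cells with a UMI.

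FAP-like cells held less Pdgfa, with 65.8 CPM in the critical, 60.5 CPM in the subcritical and 27.7 CPM in the uninjured library (172, 98 and 18 UMIs). The log2 fold over uninjured was 1.22 (interval 0.53 to 1.97) for critical and 1.10 (0.38 to 1.88) for subcritical cells, and both were past the fold. Both calls were lost with coarser clusters (0.43 and 0.11) and with the PDGF genes left in the clustering (0.97 and 0.84), and without the 10 cells with the most Pdgfa UMIs in each library, a larger share of the 166 uninjured cells, the folds were 2.45 and 2.36. Cluster 0 held most of it, with 78.8 CPM in critical and 72.6 CPM in subcritical cells. Within cluster 4, which all 3 libraries filled, the log2 fold was 0.22 (interval -0.80 to 1.24) for critical and -0.28 (interval -1.56 to 0.92) for subcritical over uninjured cells. Thinned to 808 UMIs per cell, 4.29%, 4.75% and 0.641% of critical, subcritical and uninjured FAP-like cells had a Pdgfa UMI, against 13.1%, 10.9% and 9.04% unthinned. All thinned shares leave out cells under 808 UMIs, so they cover fewer cells than unthinned ones. Among FAP-like cells 103 critical, 107 subcritical and 10 uninjured cells were left out.

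In myogenic cells Pdgfa stood at 206 CPM in the critical, 201 CPM in the subcritical and 65.1 CPM in the uninjured library, the last from 3 UMIs. The log2 fold of critical over uninjured cells was 1.64 with an interval of 0.03 to 3.89, which was past the fold with a lower bound close to equality. In arterial-like endothelium (cluster 5, led by Sema3g, Rbp7 and Alpl, with Gja5 and Hey1 among its top 10 genes) Pdgfa was also past the fold. There critical over uninjured cells stood at 1.05 (0.24 to 1.81).

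Pdgfb, the ligand of both receptors, had its highest level in endothelial-like cells: 195 CPM (168 to 225) in the critical, 262 CPM (225 to 304) in the subcritical and 354 CPM (331 to 378) in the uninjured library. The critical and subcritical intervals met at 225 CPM, and the uninjured interval lay above both. Over uninjured cells the log2 fold was -0.86 in critical and -0.43 in subcritical cells, both short of a 2-fold change. FAP-like cells, which should lack the gene, held 3.1, 1.9 and 1.5 CPM in critical, subcritical and uninjured libraries. After thinning, a Pdgfb UMI was found in 12.3% of critical, 17.9% of subcritical and 26.0% of uninjured endothelial-like cells, against 21.0%, 23.5% and 41.7% unthinned. Thinning left out 198 of 620 critical, 223 of 570 subcritical and 220 of 1295 uninjured endothelial-like cells, an uneven part of the libraries. The shares of thinned FAP-like cells were 0.123%, 0.307% and 0.641%. Median depths of the endothelial-like cells were 1088, 931 and 1535 UMIs and of the FAP-like cells 2577.5, 1989 and 3722.

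Endothelial-like cells, too, came from different clusters: cluster 1, led by Prnd, Aplnr and Fam167b and with Col15a1 among its top 10 genes, held 372 critical, 380 subcritical and 145 uninjured cells, and cluster 2, led by Timp4, Aqp1 and Car4, held 56, 15 and 687. Within cluster 1 Pdgfb stood at 202, 252 and 306 CPM in critical, subcritical and uninjured cells. In the arterial-like cluster 5 it stood at 250 CPM in critical cells, below 479 CPM in subcritical and 432 CPM in uninjured cells. In venous-like endothelium (cluster 13, led by Lrg1, Selp and Ackr1) it was 81.8, 41.2 and 74.1 CPM, from 10, 4 and 22 UMIs. None of the PDGF genes measured in cluster 1 was past the fold, in critical over uninjured (none of 5, with 6.41% of all genes past it), subcritical over uninjured (none of 4, 6.24%) or critical over subcritical cells (none of 4, 2.95%).

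Sums per animal could be tested here. In critical animals endothelial-like cells held 205, 98.1 and 269 CPM of Pdgfb, in subcritical animals 347, 380 and 207 CPM, and in uninjured animals 375, 358, 326 and 390 CPM. Every critical animal lay below every uninjured one, while subcritical animals overlapped with both groups. One further critical animal (12 cells, 135 CPM) and 1 subcritical animal (11 cells, 105 CPM) had too few cells and were left out. Group means were 191 ± 86.3 CPM (SD, n = 3) in critical, 311 ± 92.2 CPM (n = 3) in subcritical and 362 ± 27.7 CPM (n = 4) in uninjured animals.

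Pdgfb fell in critical over uninjured animals, with a log2 fold of -0.78 ± 0.22 (SE) and an adjusted p of 0.00939 by edgeR's quasi-likelihood test with Benjamini-Hochberg adjustment over 2323 genes, 18.8% of which passed the same test. This call depends on how cells were given to animals. Cells had first been assigned at a hashtag posterior of 0.9, and the limit was set to 0.5 once the number of tagged cells per animal had been seen; at 0.9 the log2 fold was -0.30 with an edgeR adjusted p of 0.507, and with a rule of 70% of the hashtag counts it was -0.27 with an adjusted p of 0.694. The call was also lost without critical replicate 2 (edgeR adjusted p 0.0553) and without critical replicate 3 (edgeR adjusted p 0.0990), and in cluster 1 alone (log2 fold -0.64, edgeR adjusted p 0.432). Between critical and subcritical animals the log2 fold was -0.59 ± 0.27 with an edgeR adjusted p of 0.519, where 0.474% of genes passed, and between subcritical and uninjured animals -0.19 ± 0.22 with an adjusted p of 0.625, where 16.8% passed. Beside these, macrophage markers in endothelial-like cells summed to 653 CPM in critical, 563 CPM in subcritical and 29 CPM in uninjured cells (10, 10 and 6 of 10 genes found, with Adgre1, Csf1r, Fcgr1 and Ms4a7 at 0 in uninjured cells). The FAP markers summed to 918, 653 and 115 CPM (12, 12 and 11 of 12 found, with Fbln1 at 0 in uninjured cells), the 6 capillary markers to 3797, 3420 and 6278 CPM and the 6 sprouting or tip markers to 1331, 1167 and 323 CPM in critical, subcritical and uninjured cells, all of these found. Macrophage-like and FAP-like cells held less Pdgfb than endothelial-like cells, and the part of these markers' cells in the difference was not tested.

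**Figure D2:**
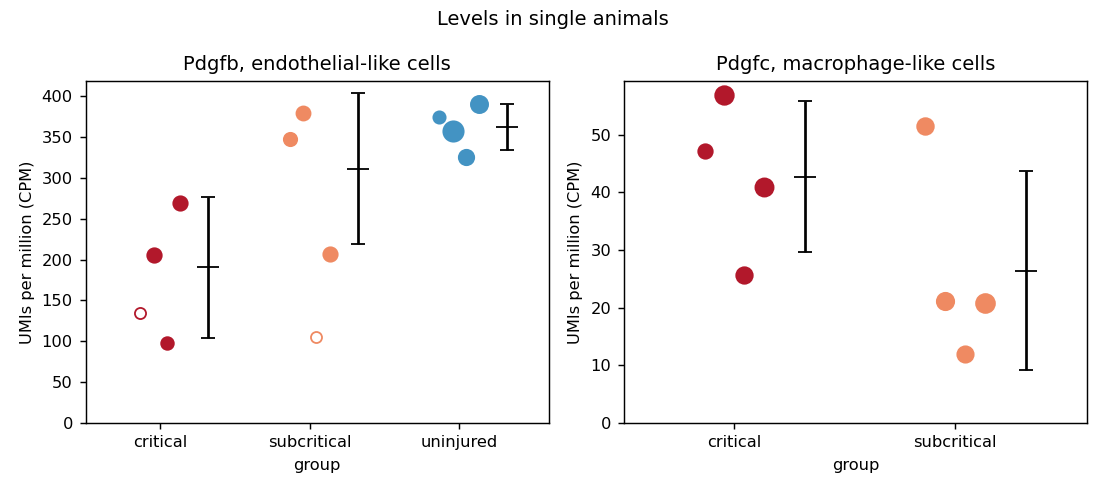
Levels in single animals (points, larger with more cells; open points have under 20 cells and were left out of the test), in CPM, with the mean and SD beside them. Pdgfb in endothelial-like cells was 98.1 to 269 CPM in the critical animals tested and 326 to 390 CPM in uninjured animals; Pdgfc in macrophage-like cells overlapped between critical and subcritical animals.

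Macrophage-like cells were the other main source of Pdgfb, at 83.9 CPM in critical, 80.5 CPM in subcritical and 39.9 CPM in uninjured cells, the last from 4 UMIs in 34 cells. They supplied 34.6% of the Pdgfb UMIs of the critical library and 29.0% of those of the subcritical one. Endothelial-like cells supplied 52.4% and 54.6% there, and 93.3% in the uninjured library. The mix of kept cells differed as well. Macrophage-like cells made up 26.2% of the critical library, 29.7% of the subcritical one and 1.59% of the uninjured one. For endothelial-like cells the figures were 20.6%, 20.7% and 60.7%. How far this mix sets the Pdgfb shares was not tested. Among macrophage clusters, cluster 7, led by Mmp12, Cxcl2 and Gdf15 and with Spp1 next, held 106 CPM in critical and 90.2 CPM in subcritical cells. That led by MHC class II genes (cluster 3) held 48.4 and 73.6 CPM. Averages over animals were 90.3 ± 15.6 CPM in critical and 81.2 ± 15.3 CPM in subcritical animals (SD, n = 4 each), with a log2 fold of 0.05 ± 0.22 and an edgeR adjusted p of 0.989.

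In mural-like cells Pdgfb came to 40.9 CPM in critical, 110 CPM in subcritical and 46.4 CPM in uninjured cells. The log2 fold was -1.40 (-2.41 to -0.42) for critical over subcritical cells and 1.22 (0.42 to 1.99) for subcritical over uninjured cells, both past the fold. Without the 10 cells with the most Pdgfb UMIs in each library neither was called (-1.21 from 5 against 6 UMIs, and 0.34), and the first was also lost with classes by marker score (-0.86). In the pericyte-rich cluster 9 the levels were 29.3, 127 and 94.3 CPM in critical, subcritical and uninjured cells, from 9, 17 and 16 UMIs, and critical cells were past the fold below both. The 10 endothelial markers, all found, summed there to 1404 CPM in critical, 2353 CPM in subcritical and 4285 CPM in uninjured cells; endothelial-like cells hold more Pdgfb than mural-like cells, and their part in these values was not tested.

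Pdgfc, which encodes a latent ligand of the receptor alpha, came to 27.2 CPM in critical, 25.9 CPM in subcritical and 7.7 CPM in uninjured FAP-like cells, from 71, 42 and 5 UMIs. The log2 fold over uninjured was 1.70 (0.50 to 3.06) for critical and 1.63 (0.40 to 3.02) for subcritical cells, both past the fold. Neither was called with coarser clusters (0.93 and 1.36, from 12 UMIs in each injured library). Within cluster 4 it was 0.99 (-0.60 to 2.63) and 1.51 (-0.06 to 3.12) and was not past it. In endothelial-like cells 1 UMI was found in critical cells and none in subcritical or uninjured cells.

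Macrophage-like cells held Pdgfc at 43.3 CPM in critical, 24.6 CPM in subcritical and 59.8 CPM in uninjured cells, the last from 6 UMIs. Most of it was in cluster 6, led by Mrc1, F13a1 and Ccl8, with 111 CPM in critical and 75.3 CPM in subcritical cells, against 21.5 and 15.0 CPM in cluster 7. By animal the values were 47.2, 56.9, 25.7 and 40.9 CPM in the critical and 51.5, 21.2, 11.99 and 20.8 CPM in the subcritical group. The groups overlap through subcritical replicate 1. The means were 42.7 ± 13.1 CPM and 26.4 ± 17.3 CPM (SD, n = 4 each), and the log2 fold of critical over subcritical animals was 0.74 ± 0.36, which did not pass (edgeR adjusted p 0.570, unadjusted p 0.0473). Pdgfa in the same animals averaged 53.5 ± 13.4 CPM in the critical and 58.6 ± 17.2 CPM in the subcritical group (edgeR adjusted p 0.975). None of the 3 ligands tested in macrophage-like animals was called by edgeR or DESeq2, and 1 had an unadjusted edgeR p under 0.05; 0.986% of all genes tested were called. The receptors, Pdgfrl and Pdgfd did not pass the filter on low counts there, nor did any PDGF gene other than Pdgfb in endothelial-like animals.

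Pdgfd, the latent ligand of the receptor beta, was highest in endothelial-like cells in each library, though not clear of mural-like cells (3 UMIs) in the subcritical one. Its level was 46.0 CPM in critical, 23.5 CPM in subcritical and 62.3 CPM in uninjured cells, from 43, 16 and 156 UMIs. Subcritical over uninjured cells were past the fold, at -1.37 (-2.17 to -0.65), while critical over uninjured cells were not, at -0.43 (-0.94 to 0.06), and critical over subcritical cells had a log2 fold of 0.94 (0.11 to 1.83). In the arterial-like cluster 5 it stood at 96.5, 57.5 and 114 CPM in critical, subcritical and uninjured cells. In FAP-like cells Pdgfd came to 8.4, 4.3 and 15.4 CPM, and the 7 UMIs of the subcritical against the 10 of the uninjured library were past the fold at -1.62 (-2.93 to -0.26), which was lost with coarser clusters (-1.02, from 4 against 10 UMIs).

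Among named classes Pdgfra was found mainly in FAP-like and, at lower levels, tenocyte-like cells. The unnamed cluster 17, led by the cell division gene Ube2c, held 75.0 CPM in critical and 98.4 CPM in subcritical cells, from 19 and 13 UMIs. FAP-like cells supplied 86.6% of its UMIs in the critical, 86.7% in the subcritical and 94.9% in the uninjured library. Macrophage-like cells held 5, 1 and 0 UMIs and mural-like cells 2, 0 and 0.

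Its level in FAP-like cells was 144 CPM (130 to 159) in the critical, 129 CPM (112 to 147) in the subcritical and 374 CPM (329 to 424) in the uninjured library. Both injured libraries lay far below the uninjured one, and their own intervals overlapped. The log2 fold over uninjured was -1.37 (-1.61 to -1.13) for critical and -1.53 (-1.81 to -1.26) for subcritical cells, and 0.16 (-0.08 to 0.41) for critical over subcritical cells. After thinning to 808 UMIs, 11.0% of critical, 10.7% of subcritical and 18.6% of uninjured FAP-like cells had a Pdgfra UMI, with intervals of 8.97% to 13.4%, 8.47% to 13.4% and 12.8% to 25.6%; unthinned shares were 28.6%, 22.4% and 57.8%, and the thinned shares of macrophage-like cells 0.474%, 0.175% and 0%.

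The difference was smaller between like clusters. In cluster 4 Pdgfra stood at 231 CPM in critical, 228 CPM in subcritical and 373 CPM in uninjured cells, with log2 folds over uninjured of -0.69 (-1.02 to -0.38) and -0.71 (-1.07 to -0.36), short of 2-fold. In cluster 0, which the uninjured library hardly fills, it was 104 CPM in critical and 88.6 CPM in subcritical cells. Cluster 10 held 299 and 138 CPM in critical and subcritical cells, from 54 and 20 UMIs. Critical over subcritical cells were past the fold there, at 1.11 (0.35 to 1.92). With coarser clusters, under which most cells of cluster 0 join a cluster named tenocyte-like, the log2 fold over uninjured was -0.69 for critical and -0.79 for subcritical FAP-like cells, so the size of the difference depends on where the boundary of the class is drawn. The 8 tenocyte markers summed to 2578, 3087 and 821 CPM in critical, subcritical and uninjured FAP-like cells, with Scx at 0 in uninjured cells. The 10 macrophage markers summed to 472, 741 and 9 CPM, with 6 of them at 0 in uninjured cells. Their part in the Pdgfra difference was not tested. In tenocyte-like cells Pdgfra was 42.5, 52.7 and 26.4 CPM, from 27, 18 and 5 UMIs, with no fold past the limit.

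Over the 6 PDGF genes that averaged 5 CPM in FAP-like cells, 2 were higher and 1 lower past the fold in critical over uninjured cells, where 14.9% of all genes were past it, and 2 were higher and 2 lower in subcritical over uninjured cells, where 13.4% were. Between critical and subcritical FAP-like cells none of the 6 was past the fold, with 1.51% of all genes past it. Within cluster 4 none was past it in any comparison, where 2.65% (critical over subcritical), 7.59% (critical over uninjured) and 6.58% (subcritical over uninjured) of genes were.

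**Figure D3:**
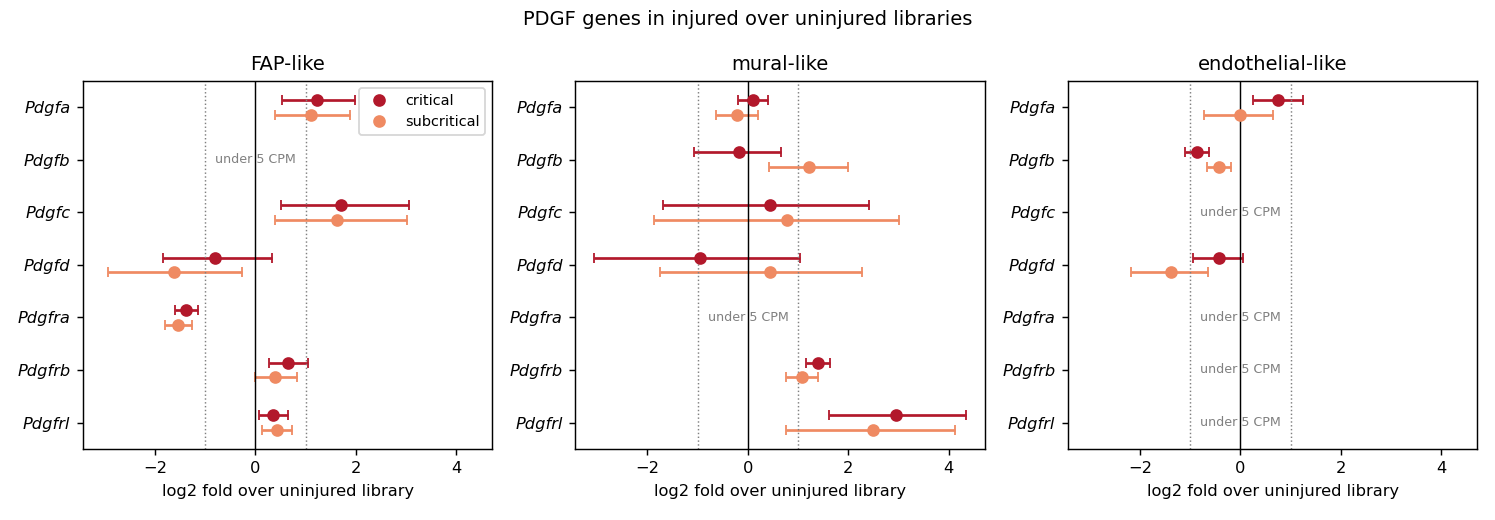
Log2 fold of each PDGF gene in critical and subcritical over the uninjured library (x axis), with exact binomial 95% intervals, in FAP-like, mural-like and endothelial-like cells. Dotted lines mark a 2-fold change; in FAP-like cells Pdgfra lies left of them and Pdgfa and Pdgfc right of them in both injured libraries, and in mural-like cells Pdgfrb and Pdgfrl lie right of them.

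Pdgfrb, the receptor that ties mural cells to endothelial PDGF-B, was highest in mural-like cells of every library. Its level there was 733 CPM (651 to 823) in critical, 588 CPM (487 to 704) in subcritical and 278 CPM (246 to 315) in uninjured cells. The injured libraries lay above the uninjured one, and their own intervals overlapped. The log2 fold over uninjured was 1.39 (1.15 to 1.64) for critical and 1.08 (0.75 to 1.40) for subcritical cells, both past the fold. The second was 0.91, short of 2-fold, without the 10 cells with the most Pdgfrb UMIs in each library. Thinned shares of cells with a UMI were 43.2%, 42.0% and 22.6% in critical, subcritical and uninjured cells (unthinned 64.7%, 50.6% and 54.3%), against none of the thinned macrophage-like cells.

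The make-up of the class differed between libraries as well. Cluster 9, led by Rgs5, Higd1b and Kcnj8, held 158 critical, 104 subcritical and 58 uninjured cells, and cluster 12, led by Myh11, Acta2 and Lmod1, held 57, 52 and 189. The 6 pericyte markers summed to 8756, 7805 and 1896 CPM in critical, subcritical and uninjured mural-like cells, and the 6 smooth muscle markers to 4273, 4351 and 12456 CPM. Within cluster 9 Pdgfrb stood at 806, 708 and 566 CPM, with log2 folds over uninjured of 0.51 (0.16 to 0.86) and 0.32 (-0.10 to 0.75), neither past the fold. Within cluster 12 it stood at 465, 347 and 214 CPM, and critical over uninjured cells were past the fold at 1.12 (0.57 to 1.63). FAP markers in mural-like cells summed to 6166 CPM in critical, 2358 CPM in subcritical and 454 CPM in uninjured cells (11, 8 and 9 of 12 found, with Pi16 at 0 in both injured libraries and Lum and Smoc2 in subcritical and uninjured cells). Pdgfrb was lower in FAP-like than in mural-like cells of each library. The part of the class make-up and of FAP transcripts in the Pdgfrb difference was not tested.

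**Figure D4:**
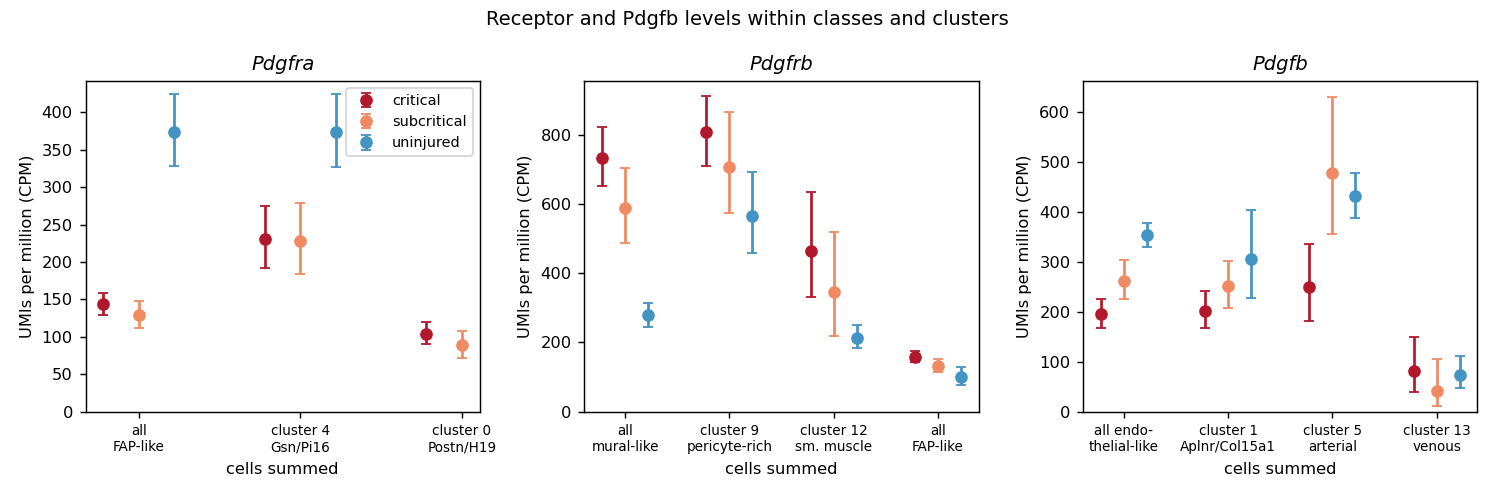
Levels (CPM) of Pdgfra, Pdgfrb and Pdgfb in whole classes and in numbered clusters (x axis), with exact Poisson 95% intervals, for critical, subcritical and uninjured libraries. Pdgfra in FAP-like cells was 144, 129 and 374 CPM, and the gap was narrower in cluster 4, with 231, 228 and 373 CPM; cluster 0 has no uninjured point since it held 1 uninjured cell.

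FAP-like cells also carried Pdgfrb, at 158 CPM in critical, 132 CPM in subcritical and 100 CPM in uninjured cells. The log2 fold over uninjured was 0.65 (0.27 to 1.05) for critical and 0.40 for subcritical cells, short of 2-fold. They supplied 49.3% of the Pdgfrb UMIs of the critical library and 54.2% of those of the subcritical one. In the uninjured library they supplied 18.95% and mural-like cells 75.2%. FAP-like cells made up 30.5% of kept cells in the critical library, 27.5% in the subcritical one and 7.78% in the uninjured one. For mural-like cells the figures were 7.14%, 5.66% and 11.6%. How far this mix sets the Pdgfrb shares was not tested. In tenocyte-like cells Pdgfrb was 117, 120 and 58.0 CPM, with subcritical over uninjured cells past the fold at 1.04 (0.06 to 2.12) but short of 2-fold, at 0.80 to 0.99, under 5 alternatives.

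Pdgfrb was met at like shares in FAP-like cells with and without Pdgfra. Of FAP-like cells with a Pdgfra UMI, 32.7% in the critical, 19.4% in the subcritical and 28.1% in the uninjured library also had a Pdgfrb UMI, against 30.5%, 21.7% and 30.0% of FAP-like cells without one. Cells with a Pdgfra UMI were deeper, with medians of 2933, 2188.5 and 4313 UMIs against 2404, 1946 and 2454.5. These shares were not thinned to a like depth, so they do not show like levels of Pdgfrb. No mural-like cell of any library had UMIs of both, but only 2 critical, 0 subcritical and 0 uninjured mural-like cells had a Pdgfra UMI. With so few, the count says little about the receptors in these cells.

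Pdgfrl was highest in tenocyte-like cells, at 343 CPM in critical, 401 CPM in subcritical and 406 CPM in uninjured cells, and the intervals overlapped. FAP-like cells followed with 231, 242 and 180 CPM, and their log2 folds over uninjured of 0.36 (0.07 to 0.65) and 0.42 (0.12 to 0.73) were short of 2-fold. In cluster 4 the levels were 184, 182 and 181 CPM, and in cluster 0 they were 255 CPM in critical and 280 CPM in subcritical cells. Mural-like cells held 48.5, 34.9 and 5.4 CPM, from 19, 7 and 5 UMIs, and both injured libraries were past the fold over the uninjured one, at 2.95 (1.61 to 4.35) and 2.49 (0.76 to 4.13). In cluster 9 the same folds were 0.97 (-0.48 to 2.66) and 0.80 (-1.02 to 2.71). The FAP markers given above for mural-like cells moved the same way, FAP-like cells hold more Pdgfrl than mural-like cells, and their part was not tested.

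In mural-like cells as a whole, of 6 PDGF genes measured, 2 were higher past the fold in critical over uninjured cells (17.5% of all genes past it), 3 were higher in subcritical over uninjured cells (12.1%), and 1 was lower in critical over subcritical cells (3.66%). In cluster 9, 1 of 6 was lower in critical over uninjured (8.66%) and in critical over subcritical cells (2.91%), and none of 6 was past the fold in subcritical over uninjured cells (5.01%). In cluster 12, 1 of 6 was higher in critical over uninjured cells (4.59%), none of 5 in subcritical over uninjured (3.86%) and none of 7 in critical over subcritical cells (1.68%). In endothelial-like libraries 1 of 3 was lower in subcritical over uninjured cells (10.4%), none of 3 in critical over uninjured cells (9.13%) and none of 4 in critical over subcritical cells (2.39%). In cluster 5, 1 of 3 was higher in critical over uninjured cells (5.48%), and none in subcritical over uninjured (4.5%) or critical over subcritical cells (2.5%).

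In tenocyte-like cells 1 of 6 was higher in subcritical over uninjured cells (8.84%), and none in critical over uninjured (11%) or critical over subcritical cells (3.36%). In myogenic cells 1 of 4 was higher in critical over uninjured cells (8.22%), none of 4 in subcritical over uninjured (6.72%) and none of 5 in critical over subcritical cells (2.68%). In macrophage-like libraries none of 3 was past the fold, in critical over uninjured (8.37%), subcritical over uninjured (8.53%) or critical over subcritical cells (3.25%), and none of 5 was in critical over subcritical cells of cluster 0 (2.17%). With 3 to 7 genes measured per comparison, these counts describe the PDGF genes and do not set them apart from other genes.

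The receptor alpha was also read as surface protein. The CD140a antibody gave 117 counts per 10000 panel counts in critical, 124 in subcritical and 91.2 in uninjured FAP-like cells. Endothelial-like cells, which hold almost no Pdgfra transcript, gave 96.5, 95.6 and 83.3, and macrophage-like cells 97.6, 113 and 80.4. The FAP-like values thus stood little above those of cells without the transcript, and counted per cell they were below endothelial-like cells, at ratios of 0.349, 0.397 and 0.175 in critical, subcritical and uninjured libraries; the median FAP-like cell carried 35, 51 and 33 panel counts. The 289 per 10000 of critical mural-like cells rested on 1 cell with 441 of 709 counts. For scale, CD31, picked after its values were seen, gave 216, 231 and 131 per 10000 in endothelial-like cells against 49.2, 43.2 and 51.6 in FAP-like cells. FAP-like cells with a Pdgfra UMI gave 131, 124 and 111 CD140a counts per 10000, and those without one 111, 124 and 65.9, in critical, subcritical and uninjured libraries; the order of the libraries by transcript was not seen in the antibody.

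**Figure D5:**
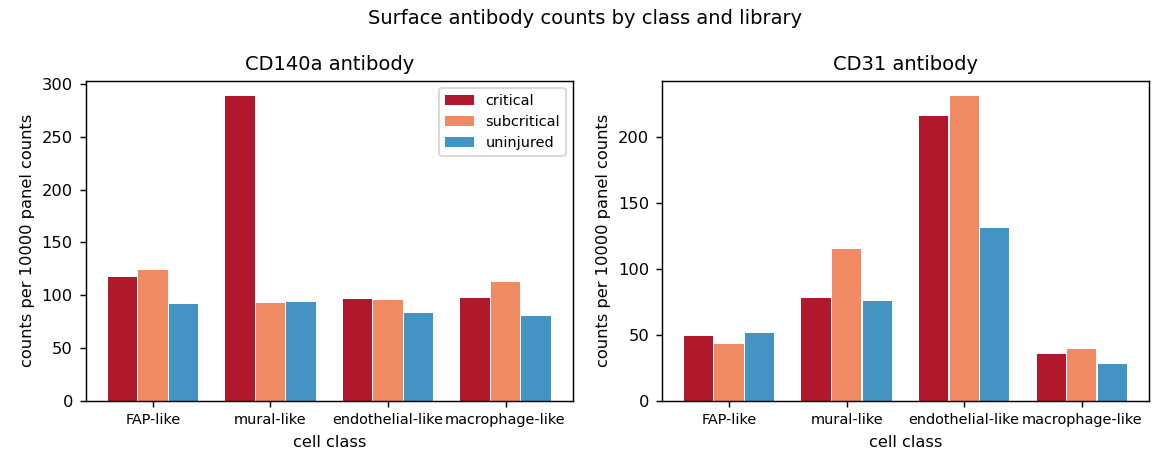
CD140a (left) and CD31 (right) antibody counts per 10000 panel antibody counts (y axis) by cell class and library. CD140a in FAP-like cells was 117, 124 and 91.2 in critical, subcritical and uninjured libraries, close to other classes apart from the critical mural-like bar, which rests on 1 cell, while CD31 was highest in endothelial-like cells.

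Other genes of the pathway were read from lists, whose counts in critical over uninjured FAP-like cells stand beside 14.9% of all genes past the fold in either direction. Of 9 proteases and inhibitors that act on PDGF ligands and were measured in FAP-like cells, 3 were lower past the fold in critical over uninjured cells: the proprotein convertase Pcsk6 at 36.7 against 151 CPM (log2 fold -2.01), the urokinase Plau at 56.6 against 152 CPM (-1.41) and the inhibitor Serpine2 at 430 against 981 CPM (-1.19). The list's median log2 fold was 0.32, beside -0.06 over all genes. Of 11 coreceptors and binding proteins, Thbs1 (1.97) and Efnb2 (2.09) were higher and Ecm1 (-1.84) lower. Among 14 genes that attenuate receptor signals, the Ras pathway inhibitors Spry4 (-2.07) and Spry1 (-1.34) were lower and none was higher, with a median of -0.21. Of 18 adaptors and enzymes, Rasa1 (1.50) was higher and Pik3r1 (-1.30) lower. In critical over uninjured cells of cluster 4, where 7.59% of all genes were past the fold, only Rasa1 (2.23) of the genes named in this paragraph was past it.

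Of 19 genes first known as induced by PDGF in fibroblasts or by serum, 7 were higher and 2 lower in critical over uninjured FAP-like cells, where 14.9% of all genes were past the fold. Highest were the matrix protein Tnc at 874 against 32.3 CPM (4.71), the lipid kinase Sphk1 (3.71, 1 uninjured UMI), Fosl1 (3.07, 1 uninjured UMI) and the protease inhibitor Timp1 at 603 against 93.9 CPM (2.67), while the chemokine Ccl2 (-1.43) and the hyaluronan synthase Has2 (-1.48) were lower. In cluster 4 alone, with 7.59% of all genes past the fold, 4 of 18 were higher and 1 lower. Among the higher were Timp1 at 347 against 94.5 CPM and Tnc at 20.3 against 4.73 CPM, and the lower was Myc (-1.05). In subcritical over uninjured FAP-like cells (13.4% of all genes) 7 were higher and 2 lower as well. In cluster 4 alone (6.58%), Tnc (3.91), Timp1 (2.04) and Ccl7 (1.73) were higher in that comparison. Genes lower there included Myc (-1.38), Egr1 (-1.12), Ccn2 (-1.09) and Ier2 (-1.04).

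In mural-like cells, where 17.5% of all genes were past the fold in critical over uninjured cells, 5 of 11 coreceptors and binding proteins were higher, led by Sparc, a matrix protein that binds PDGF-B, at 5591 against 1343 CPM (2.06), Lrp1 (1.32), Nrp2 (1.27) and Itgav (1.16). Of 18 adaptors and enzymes 3 were higher, a share near that of all genes, Fyn (2.27), Pik3r1 (1.19) and Plcg1 (1.12), and of 13 attenuating genes 3 were, Dusp6 (1.83), Spry1 (1.55) and Ptpn2 (1.42). Of 17 PDGF-induced and serum response genes 4 were higher, led by Timp1 at 212 against 1.08 CPM (6.68, 1 uninjured UMI) and Tnc (4.07), and 5 lower, among them Fos at 429 against 2028 CPM (-2.24) and Ccn1 (-1.81). Within cluster 9, 3 of 11 coreceptors were higher and 1 lower, with 8.66% of all genes past the fold. Of Sparc, Lrp1, Nrp2 and Itgav, only Itgav (2.44) was past it there. None of the adaptors and attenuating genes named above was past it in cluster 9. Timp1 (5.21, 1 uninjured UMI) and Tnc (2.31) were still higher there, and Fos (-1.74) and Ccn1 (-1.19) still lower.

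In endothelial-like animals 27 genes of these lists could be tested. In critical over uninjured animals edgeR called 3 of them higher and 4 lower, where 18.8% of all genes tested were called. Sparc rose in critical over uninjured animals (log2 fold 0.99 ± 0.11, edgeR adjusted p 9.14e-09), as did Efnb2 (0.96 ± 0.27, edgeR adjusted p 0.00862), an ephrin of arterial endothelium, and the kinase Fyn (1.01 ± 0.36, edgeR adjusted p 0.0448). The VEGF receptors Flt1 (-0.55 ± 0.13, edgeR adjusted p 0.00117) and Kdr (-0.44 ± 0.15, edgeR adjusted p 0.0290), Cav1 (-0.59 ± 0.11, edgeR adjusted p 7.33e-05) and Jun (-0.46 ± 0.16, edgeR adjusted p 0.0350) fell. DESeq2 called 4 of the 27 in this comparison. It called neither Fyn nor Jun, and only 1 gene of the list that holds Flt1 and Kdr. In subcritical over uninjured animals Sparc rose (0.84) and Flt1 (-0.61), Kdr (-0.47) and Cav1 (-0.74) fell. These were 1 higher and 3 lower of the 27, where 16.8% of all genes were called, and DESeq2 called 3 of the 27. Between critical and subcritical animals edgeR and DESeq2 called none of the 27, with 4 at an unadjusted edgeR p under 0.05. There edgeR called 0.474% of all genes. In macrophage-like animals the 2 tools called none of 34, with 6 at an unadjusted edgeR p under 0.05, where edgeR called 0.986% of all genes.

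Across 22 sums of a class in a library, and among 11263 genes, the genes most like each PDGF gene in log2(CPM + 1) were sought as a description. The sums of a class share libraries and depth. Pdgfra was most like Osr2 (Pearson r 0.94), Mmp3 (0.93) and Pcolce2 (0.92), and Pdgfrb most like Ddit4l (0.95), Trabd2b (0.94) and Foxs1 (0.94). Pdgfb was nearest to Cd93 (0.95), Cd36 (0.95) and S1pr1 (0.91), and Pdgfd to Lnx1 (0.94), Serpinb9 (0.92) and Tspan9 (0.90). Pdgfa was nearest to Sdc1 (0.93), Slc25a4 (0.93) and Mast2 (0.90), Pdgfc to Rnf150 (0.87), Adcy3 (0.81) and Gga2 (0.80), and Pdgfrl to Col16a1 (0.94), Loxl1 (0.93) and Col6a1 (0.93).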

How the data were processed

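The deposited matrices held raw UMI counts, which per the file headers came from Cell Ranger 6.0.2; the submitters' processing notes also name bcl2fastq and GRCm39 (mm39). Depth is given as the total count per library, and its intervals cover counting error only. Cells with at least 200 genes, 500 UMIs and at most 20% mitochondrial UMIs were kept, and 354 with several hashtags were removed. Scrublet, run before that removal, marked 75 barcodes as doublets, and its calls were not used to remove cells. Hashtags were called with a count mixture; its posterior was first 0.9, then set to 0.5 after tagged cells per animal were known, but before any test of a gene.

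Clusters (scanpy 1.11.5, leidenalg 0.10.2, Python 3.11.15) rest on 1999 variable genes without the PDGF genes, 30 components, 15 neighbours and resolution 0.8, with no batch correction. The naming rule was set after clusters were seen and revised once, and clustering was run 3 times in all. Classes are named from transcripts alone; 172, 195 and 109 critical, subcritical and uninjured cells stayed unnamed. No lymphoid class was found, so neutrophil-like, macrophage-like and FAP-like cells served as background.

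UMIs were summed per animal with at least 20 cells of a class and tested with edgeR 4.0.16 (R 4.3.3; TMM, filterByExpr, robust quasi-likelihood fit, Benjamini-Hochberg adjusted p under 0.05). At most 1 animal of a library had 20 FAP-like cells, and none had 20 mural-like cells, so these classes were not tested. Animals are the replicates; each group's animals share 1 pool. On simulated counts with the endothelial-like depths of critical and subcritical animals (2323 genes), 48% of 2-fold and 90% of 4-fold changes were recovered, and with macrophage-like depths (3954 genes) 79% and 99%. Log2 folds between libraries use a pseudocount of 1 CPM, which understates changes of low genes. Antibody aggregates (42 cells) were left out of antibody values.

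The 7 genes and the gene lists were chosen with earlier results of these data known. All 7 are named whatever their values; of other lists, at most the 4 of largest change in each direction. One list gene that this rule would name is not reported here. Alternatives were DESeq2 1.42.0, other filters, pseudocounts, cell minimums, hashtag rules and clusterings, and leaving out each animal. No column of the matrices was left unused.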

Additional observations from a re-analysis of the deposited data

Results flagged for a closer look

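Among 9 groups of 4 animals examined (a PDGF gene in a class with at least 20 UMIs), 1 animal stood apart from the others of its group: Pdgfb in macrophage-like cells of subcritical replicate 3 was 104 CPM, against 70.5 to 75.5 CPM in the other 3 subcritical animals, with 85% of the group's range in the gap. Chance flags about 1 in 20 such groups. Without this animal the log2 fold of critical over subcritical animals was 0.18, with an edgeR adjusted p of 0.931.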

How the results depend on the processing

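The fall of Pdgfb in endothelial-like cells of critical over uninjured animals was kept with DESeq2 (-0.81, DESeq2 adjusted p 0.0357), with no filter on low counts, with at least 10 cells per animal, with coarser clusters and with the PDGF genes left in the clustering. It was not called with at least 40 cells (-0.57, edgeR adjusted p 0.123), nor under the settings named beside the result: the 0.9 hashtag posterior that was tried first, the 70% rule, cluster 1 alone (added after the data were seen), and without critical replicate 2 or 3. Leaving out 1 animal at a time gave log2 folds of -1.05 to -0.58. The other member folds between animals were not called under any setting run; those near 0 changed sign: Pdgfb in endothelial-like subcritical over uninjured animals from -0.37 to 0.0732 on leaving out 1 animal, Pdgfb in macrophage-like animals -0.00904 to 0.19, -0.000635 with no filter, -0.00116 under the 70% rule and -0.0627 at posterior 0.9, and Pdgfa there -0.32 to 0.0423.

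Counts of genes called in endothelial-like animals were 275 (DESeq2), 290 (at least 40 cells), 227 (70% rule), 208 (posterior 0.9) and 76 (cluster 1 alone) in critical over uninjured animals beside 437, with 255 to 459 on leaving out 1 animal; 259 (DESeq2), 259 (70% rule) and 51 (cluster 1 alone) in subcritical over uninjured animals beside 390, with 245 to 399; and 22 (posterior 0.9) in critical over subcritical animals beside 11, with 9 to 13. In macrophage-like animals 63 were called with no filter beside 39, with 28 to 46 on leaving out 1 animal. Fewer animals or genes entered several of these fits. Pdgfra in FAP-like cells gave -0.688 (critical over uninjured) and -0.790 (subcritical over uninjured) with coarser clusters. The ratio of CD140a in FAP-like over endothelial-like cells turned round per cell, to 0.349, 0.397 and 0.175 in critical, subcritical and uninjured libraries, and to 0.970 in the critical library with antibody aggregates kept. Of 839 alternative values for 73 library folds, 819 stayed within the interval of the fold and 20 moved out of it. The sign differed in 26 values of 14 folds, all with an interval that included equality; Pdgfa in tenocyte-like cells ranged from -1.002 to 2.13 (critical over uninjured, -0.34 as reported) and -0.85 to 2.46 (subcritical over uninjured, 0.13), Pdgfrl there from -0.71 to 0.84 (critical over uninjured) and Pdgfb in mural-like cells from -0.87 to 0.38 (critical over uninjured). Leaving out the 10 cells with the most UMIs of a gene takes more of a small class, such as the 29 uninjured tenocyte-like cells. Of 15 folds called past the fold, 11 were lost under at least 1 setting, as given beside each, and 11 others were called only under an alternative. These folds are of whole FAP-like, mural-like, endothelial-like, macrophage-like and tenocyte-like classes. Library folds in myogenic cells and in single clusters were not run under alternatives. The cause was not tested. No paired analysis was possible because hashtag numbers only name animals and 1 library was made per group. Between libraries counting error alone is known, and genes at few UMIs are limited by depth.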
